A study of Yarrowia lipolytica with 9 samples.

Results

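A set of 30 genes of the oleaginous yeast Yarrowia lipolytica, out of 6145 features counted by RNA sequencing, had lower transcript levels in both of the SPT15 mutant strains than in the control strain. The genes were chosen by their measured values. For each mutant the mean of the normalised read counts (deposited counts divided by median-of-ratios size factors over all 9 samples) was divided by the mean of the control, and a gene was taken when both log2 ratios were at most -0.6. The control mean also had to reach 2 CPM (counts scaled to a common total of 1000000 per sample), and the 100 features with the highest mean FPKM (CPM per kilobase of feature) in the control, 186 transcripts outside the annotation and the features XM_500912.1 and XM_500127.1 were left out. After these conditions 5567 features could have been chosen. Since the ratios to the control chose the genes, those ratios are given below as a description and no test of them is read as a result. The comparison that was tested is that of the mutants with each other, which the rule did not use as such, although the same 6 mutant samples entered the rule.

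Spt15 is the TATA-binding protein of Saccharomyces cerevisiae, the subunit of the general factor TFIID that binds DNA at core promoters and helps to place RNA polymerase at the start of transcription. In that yeast it is delivered to promoters by TFIID or by the SAGA complex, and promoters differ in how much they rely on either, so altered forms of the protein can lower some genes and raise others. Yl-Spt15 is its potential counterpart in Y. lipolytica. The files and the reference table used here give these genes as accessions and, for most, as locus tags of strain W29, with no gene name or function, so the 30 genes are described by their levels and no role is stated for them.

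All 3 strains derive from ATCC 201249, a uracil, leucine and lysine auxotroph with a tagged PEX17, and all carried the heterologous genes crtE, crtB, crtI and crtY for beta-carotene at the ribosomal DNA and a row of assembled Yl-SPT15 cassettes, each with its own promoter (GPAT, YAT1, XPR2, FBA and LEU), at the GUT2 site. The cassettes were wild type in Yl_5_1 (labelled ctrl), carried mutations in more than one cassette in Yl_5_2 (labelled Y5_2), and carried a mutation in a single cassette in Yl_5_3 (labelled Y5_3). The native gene remained in each strain, the integration lowered GUT2 only in part, and each mutant was grown from a colony picked by its colour, so a difference between the colonies other than in Yl-SPT15 cannot be told apart from the mutations. Each strain was represented by 3 samples of cells frozen after 96 h of flask culture at 28 °C, and nothing in the labels says that the 3 samples of a strain came from separate cultures, so the p-values measure the spread between these samples, which may be technical. The accession of Yl-SPT15 was not paired with its identifier in the sources used here, and its level is not analysed.

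The total count lay between 17771507 and 23288547 per sample, and between 5985 and 6026 features had at least 10 counts in a sample. The 30 genes together took from 0.287% to 0.319% of the counts of a control sample, from 0.150% to 0.163% of a Yl_5_2 sample and from 0.125% to 0.129% of a Yl_5_3 sample. Every mutant sample was below the lowest control sample in this sum, and lower mean sums in the mutants follow from the rule. Levels scaled between samples are relative to the other transcripts of the same sample, so a change in total RNA per cell is not seen. A fall in every cell and a fall in part of the culture cannot be told apart.

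The log2 ratio to Yl_5_1 over the 30 genes had a median of -1.06 in Yl_5_2, with a range from -3.37 to -0.60. In Yl_5_3 the median was -1.18, with a range from -4.15 to -0.64. The -4.15 was that of XM_501857.1, nearly all of whose control reads came from 1 sample, and the next lowest was -2.61 (XM_500282.1). Over the 5567 features that could be chosen the medians were -0.0038 and 0.013. Of the 30 genes, 10 were lower by more than 2-fold in both mutants, 9 in Yl_5_3 alone, 5 in Yl_5_2 alone and 6 in neither. At the limit of the rule, the genes just inside were XM_505199.1 (-0.60 in Yl_5_2 and -1.37 in Yl_5_3), XM_501092.1 (-0.61 and -1.04) and XM_500077.1 (-0.62 and -0.97). Just outside were XM_505740.1 (-0.598 and -1.36), XM_501647.1 (-0.59 and -0.68) and XM_501634.1 (-0.59 and -1.12), so the set has no gap at its edge. The features left out by name had ratios of the same kind, -0.63 and -0.75 for XM_500912.1 and -0.64 and -2.66 for XM_500127.1. No transcript from outside the annotation at or above the control minimum and none of the 100 most abundant features met both limits.

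**Figure D1:**
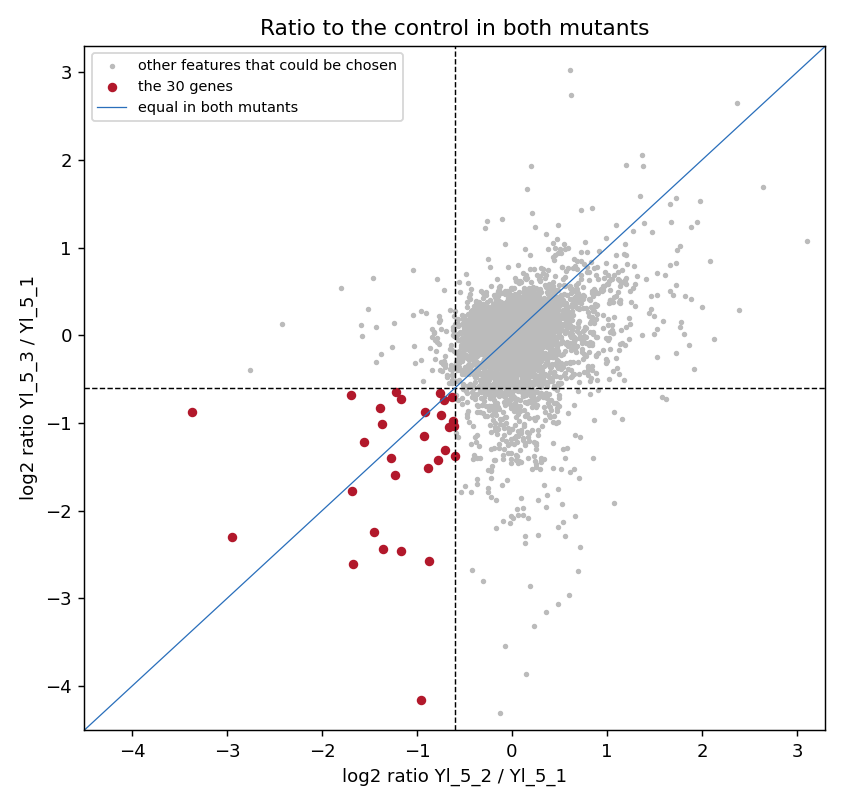
Log2 ratio to Yl_5_1 in Yl_5_2 (horizontal axis) and in Yl_5_3 (vertical axis) for the 5567 features that could be chosen, with the limits of -0.6 as dashed lines, the line of equal ratios in blue and the 30 genes in red. The genes spread to both sides of the line of equal ratios, with 20 of the 30 further down in Yl_5_3. Of the 5567 features 2854 were lower in Yl_5_3 than in Yl_5_2. At or below -0.6 were 103 of the 5567 in Yl_5_2 and 420 in Yl_5_3, so nothing is read from the 20.

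All 30 genes passed the filter of at least 10 counts in at least 3 samples and entered edgeR's quasi-likelihood test. Taking an adjusted p under 0.05 as a call, 27 of them were lower in Yl_5_2 than in Yl_5_1, where 30.0% of the 6037 features tested were, and 27 were lower in Yl_5_3, where 29.7% were. Both calls were made for 26 genes, against 9.43% of all features. The 3 samples of Yl_5_2 lay below all 3 control samples for 28 genes (31.5% of all features), those of Yl_5_3 for 29 genes (33.1%), and all 6 mutant samples for 28 genes (11.3%). The rule used these contrasts, and nothing is read from the counts except which genes stood apart from the rest. The 4 genes without both calls were XM_501857.1, XM_501401.1, XM_499898.1 and XM_505821.1, whose samples are given below.

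**Figure D2:**
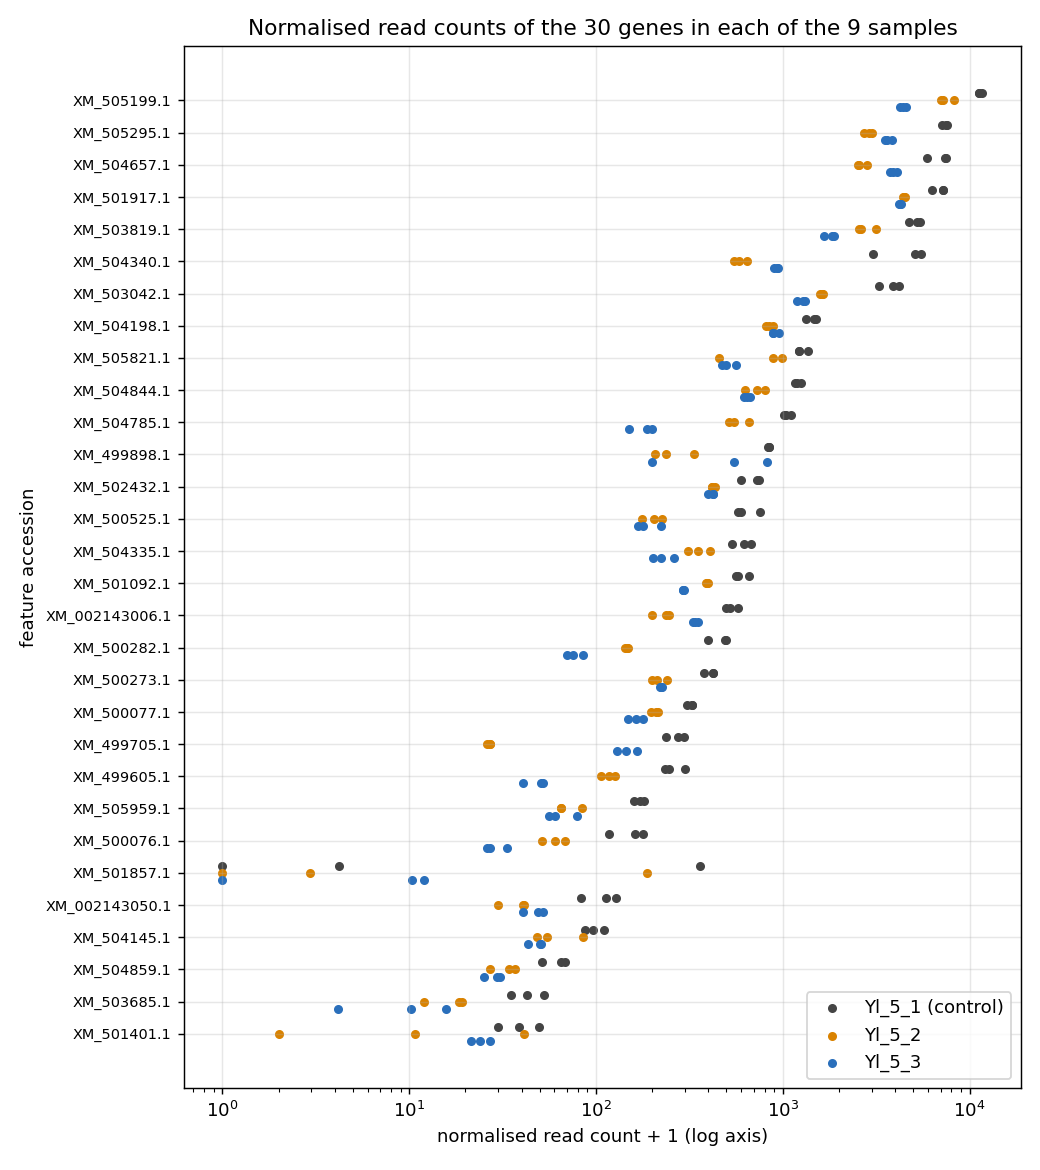
Normalised read count plus 1 (horizontal, log axis) of each of the 30 genes (vertical, by accession, ordered by the control mean) in the 3 samples each of Yl_5_1 (grey), Yl_5_2 (orange) and Yl_5_3 (blue). For 28 genes every mutant point lies left of every control point, the exceptions being XM_501857.1 and XM_501401.1.

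The comparison of the mutants with each other asks whether the genes fell to the same extent in both. Of the 30 genes, 15 differed between Yl_5_2 and Yl_5_3 by edgeR's quasi-likelihood test (adjusted p under 0.05 after Benjamini-Hochberg correction for the whole table), where 67.4% of the 6037 features tested did. Lower in Yl_5_3 were 11 genes, against 36.5% of all features, and lower in Yl_5_2 were 4 genes, against 30.9%. With samples scaled by their totals alone 13 genes were lower in Yl_5_3, against 49.8% of all features, and 4 in Yl_5_2, against 20.1%. With limma on log2(FPKM + 1) these were 14 genes, against 49.7%, and 5 genes, against 19.7%. How the shares of the genes stand to those of all features therefore moved with the scaling, and nothing is read from them. Of all features called, 45.9% were lower in Yl_5_2, or 28.7% with the totals instead of TMM factors, which moved the median log2 difference of all features from 0.03 to 0.16. The median size of the log2 difference was 0.49 over the 30 genes and 0.26 over all features. Called with a difference of more than 2-fold were 4 genes (13.3% of the 30, against 6.05% of all features). The rule took genes with large ratios in these same mutant samples, so nothing is read from these sizes either. The samples of the mutants did not overlap for 16 genes, against 72.1% of all features: those of Yl_5_3 were the lower for 11 genes (38.4% of all features) and those of Yl_5_2 for 5 (33.7%).

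**Figure D3:**
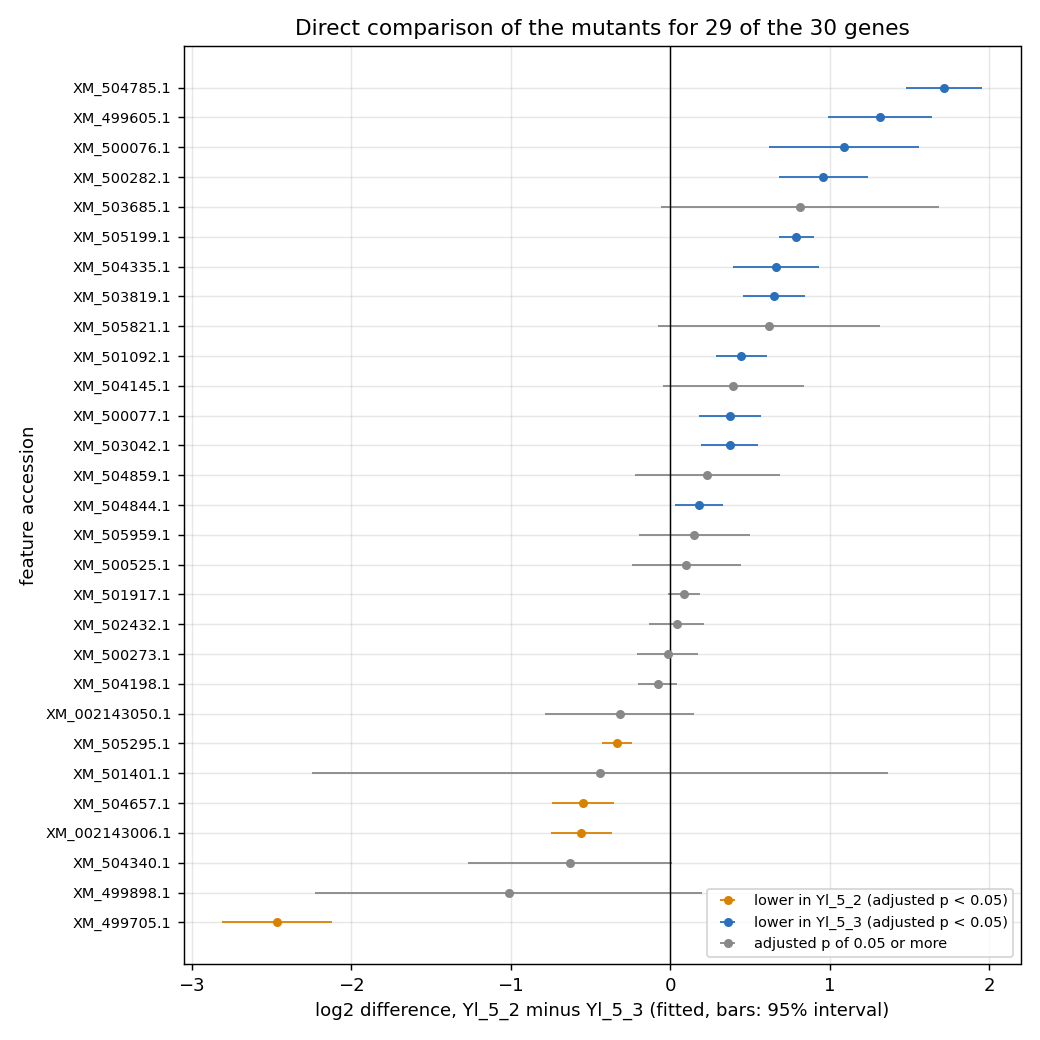
Fitted log2 difference of Yl_5_2 minus Yl_5_3 (horizontal) with its 95% interval for 29 of the 30 genes (vertical, by accession), with the 11 genes called lower in Yl_5_3 in blue, the 4 called lower in Yl_5_2 in orange and the 14 uncalled genes shown in grey. XM_501857.1, whose interval ran from -4.41 to 10.62, is not drawn.

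Among the genes that were lower in Yl_5_3 than in Yl_5_2, XM_504785.1 (YALI1_E41251g) had the largest difference. Its normalised read counts were 1107, 1014 and 1041 in Yl_5_1, then 544, 515 and 662 in Yl_5_2, then 198, 149 and 187 in Yl_5_3. The 3 strains did not overlap, and 54.5% of the control level was left in Yl_5_2 and 16.9% in Yl_5_3. Fitted, Yl_5_2 stood 1.72 above Yl_5_3 on the log2 scale (standard error 0.11, adjusted p = 5.7e-09, edgeR's quasi-likelihood test).

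XM_499605.1 (YALI1_A00148g) had the same order at lower counts. Normalised counts of 244, 234 and 298 in Yl_5_1 stood against 125, 105 and 116 in Yl_5_2 and 39.8, 49.8 and 51.2 in Yl_5_3. Every sample of Yl_5_3 was below every sample of Yl_5_2, with a log2 difference of 1.31 (standard error 0.15, adjusted p = 9.19e-07, edgeR). For XM_500076.1 (YALI1_A14882g) the counts were 177, 116 and 160.4 in the control, 67.7, 50.6 and 59.1 in Yl_5_2, and 26.2, 32.3 and 25.0 in Yl_5_3. The groups again did not overlap (log2 difference 1.09, standard error 0.22, adjusted p = 0.000356, edgeR).

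XM_500282.1 (YALI1_A21372g) was lower by 3.19-fold in Yl_5_2 and by 6.12-fold in Yl_5_3. It had 498, 490.5 and 399 normalised counts in Yl_5_1, 147, 142 and 145 in Yl_5_2, and 83.8, 69.2 and 74.0 in Yl_5_3. The mutant groups were tight and apart from each other, at 31.3% and 16.4% of the control level (log2 difference 0.96, standard error 0.13, adjusted p = 6.02e-06, edgeR).

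Of the 30 genes, XM_505199.1 (YALI1_F12917g) had the most reads. The samples had 11735, 11285 and 11227 normalised counts in Yl_5_1, 7218, 7058 and 8254 in Yl_5_2, and 4402, 4249.8 and 4559 in Yl_5_3. The groups did not overlap, and although this gene was only just inside the rule in Yl_5_2, the log2 difference between the mutants was 0.79 (standard error 0.05, adjusted p = 9.61e-10, edgeR). XM_503819.1 (YALI1_E14201g) showed a like order from 4739.7, 5421 and 5214 through 2631, 2554 and 3159 to 1826, 1891 and 1666, with a log2 difference of 0.65 (standard error 0.09, adjusted p = 9.66e-05, edgeR). XM_504335.1 (YALI1_E28631g) had 537, 619 and 674 in Yl_5_1, 310.0, 408 and 349.6 in Yl_5_2 and 259.7, 202 and 223 in Yl_5_3, again with no overlap (log2 difference 0.66, standard error 0.12, adjusted p = 0.000343, edgeR).

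The other 4 genes lower in Yl_5_3 differed less between the mutants. XM_503042.1 (YALI1_D24997g), a short feature of 444 bases, had 3296, 4205 and 3882 normalised counts in Yl_5_1, 1579, 1636 and 1630.0 in Yl_5_2 and 1276, 1321 and 1189 in Yl_5_3. Its 3 strains did not overlap. XM_501092.1 (YALI1_B25258g) had 658, 562 and 575 in Yl_5_1, 391, 395 and 389 in Yl_5_2 and 294, 291 and 290.2 in Yl_5_3, so the samples of each mutant lay close together. XM_500077.1 had 305, 327 and 326, then 210.0, 215 and 197, then 177, 147 and 164 in the same order of strains, also without overlap. The log2 differences of these genes were 0.37, 0.44 and 0.38, with adjusted p-values of 0.00155, 6.32e-05 and 0.00176 from edgeR's quasi-likelihood test.

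XM_504844.1 (YALI1_F01614g), a feature of 4113 bases, was the weakest of the 11 calls. Its samples had 1199, 1158 and 1258 normalised counts in Yl_5_1, 730.0, 630.3 and 799 in Yl_5_2 and 618, 664 and 646 in Yl_5_3. The mutants overlapped, and the difference of 0.18 (standard error 0.07, adjusted p = 0.0339, edgeR) lost its call without Yl_5_2 replicate 1 (0.17), Yl_5_2 replicate 3 (0.10), Yl_5_3 replicate 1 (0.16) or Yl_5_3 replicate 3 (0.19), and with DESeq2 (0.16), with median-of-ratios factors (0.16) and in a fit of the 6 mutant samples (0.16).

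The gene with the strongest call in the other direction was XM_499705.1 (YALI1_A03258g), a feature of 540 bases. Its normalised counts were 236, 273 and 294 in Yl_5_1, 25.2, 26.3 and 26.0 in Yl_5_2, and 164, 128 and 145 in Yl_5_3. It stood at 9.66% of the control level in Yl_5_2 and at 54.5% in Yl_5_3, with no overlap between the strains. The mutants differed by -2.47 on the log2 scale (Yl_5_2 minus Yl_5_3, standard error 0.16, adjusted p = 8.25e-10, edgeR).

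Another 3 genes were lower in Yl_5_2 by smaller steps. XM_504657.1 (YALI1_E37812g) had 5939, 7459 and 7379 normalised counts in Yl_5_1, 2559.7, 2531 and 2822 in Yl_5_2 and 3889, 4077 and 3738 in Yl_5_3. XM_505295.1 had 7162, 7451 and 7604, then 2996, 2889 and 2707, then 3538, 3594 and 3860.0 in the same order. XM_002143006.1, a feature of only 162 bases, had 493, 572 and 522, then 246, 199 and 237, then 329, 337 and 353. For none of these genes did the strains overlap, and Yl_5_3 lay between Yl_5_2 and the control each time. Their log2 differences of Yl_5_2 minus Yl_5_3 were -0.55, -0.34 and -0.56, with adjusted p-values of 0.000321, 5.13e-06 and 3.31e-05 from edgeR's quasi-likelihood test. With samples scaled by their totals the difference of XM_505295.1 was -0.21.

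XM_504340.1 (YALI1_E28779g) was the only gene of the 30 that was lower by more than 4-fold in both mutants. Its samples had 3044, 5497 and 5108 normalised counts in Yl_5_1, 583, 546 and 645 in Yl_5_2, and 903, 936 and 940.0 in Yl_5_3. The control samples were spread widely, with replicate 1 lowest, while the samples of each mutant lay close together and did not overlap. At 13.0% and 20.4% of the control level, the mutants differed by -0.63 (Yl_5_2 minus Yl_5_3, standard error 0.26, adjusted p = 0.0756, edgeR), which is not a call. The test shares its estimate of the spread with the control samples, and without Yl_5_1 replicate 1 the same difference had an adjusted p of 1.41e-07 (edgeR), as it had one of 3.91e-07 in a fit of the 6 mutant samples (-0.65). With all 9 samples it was called by DESeq2 (-0.65, adjusted p = 0.00723) and by limma on log2(FPKM + 1) (-0.49, adjusted p = 0.0353) and log2(FPKM + 0.1) (-0.50, adjusted p = 0.0398).

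For 6 further genes the mutants lay close together and no call was made. XM_500525.1 (YALI1_B07331g) was the lowest of them relative to the control, with 578, 758 and 601 normalised counts in Yl_5_1, 176, 203 and 224 in Yl_5_2 and 178, 222 and 166 in Yl_5_3. The mutants were at 31.2% and 29.3% of the control level, and the 95% interval of their log2 difference ran from -0.24 to 0.44. XM_505959.1 (YALI1_F35219g) had 159, 179 and 172, then 82.8, 64.2 and 64.1, then 78.5, 55.4 and 59.2, with an interval from -0.20 to 0.50. These intervals leave room for differences of either sign.

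The intervals were narrower for the rest of these genes, although XM_500273.1 had fewer reads than XM_500525.1. XM_501917.1 (YALI1_C23902g) had 6290.2, 7179 and 7247 normalised counts in Yl_5_1, 4399, 4449.7 and 4513 in Yl_5_2, and 4298, 4266 and 4182 in Yl_5_3. The samples of the mutants did not overlap, yet the difference was small at 0.09 (95% interval from -0.01 to 0.19, adjusted p = 0.107, edgeR), and it was called without Yl_5_1 replicate 1 (0.09) and with upper quartile factors (0.10), total counts (0.21) or limma on the FPKM values (0.21). XM_504198.1 (YALI1_E24532g) had 1466, 1332 and 1509, then 816, 840.3 and 892, then 958, 887 and 881, and an interval from -0.20 to 0.04. XM_502432.1 had 598, 745 and 726, then 415, 432 and 416, then 424, 424 and 396, and an interval from -0.13 to 0.21. XM_500273.1 (YALI1_A21175g) stood at 53.2% and 54.5% of the control level, and its interval ran from -0.21 to 0.18. Its samples had 424, 423 and 378 in Yl_5_1, 240.3, 212 and 198 in Yl_5_2 and 221, 226 and 219.6 in Yl_5_3, with the mutant samples overlapping.

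Another 4 genes without a call had few reads. XM_503685.1 (YALI1_E09884g) had raw counts of 65, 34 and 39 in Yl_5_1, 18, 18 and 11 in Yl_5_2, and 3, 10 and 13 in Yl_5_3. All mutant samples were below the control, and the mutants overlapped (log2 difference 0.81, 95% interval from -0.06 to 1.69, adjusted p = 0.0909, edgeR), with a call only without Yl_5_2 replicate 3 (1.01) or Yl_5_3 replicate 3 (1.30) and a fall to 0.43 without Yl_5_3 replicate 1. XM_002143050.1 (YALI1_E33336g), a feature of 261 bases, had raw counts from 76 to 141 in Yl_5_1, from 29 to 41 in Yl_5_2 and from 42 to 49 in Yl_5_3, and its interval ran from -0.78 to 0.15. XM_504859.1 (YALI1_F02199g) had from 47 to 80, from 26 to 37 and from 23 to 32, with an interval from -0.22 to 0.69. The intervals of these genes span 0. XM_500076.1, with raw counts from 52 to 67 in Yl_5_2 and from 22 to 35 in Yl_5_3, was called at a larger difference (1.09). XM_504145.1 (YALI1_E23256g) had raw counts of 119, 86 and 102 in Yl_5_1, 83, 55 and 47 in Yl_5_2, and 47, 54 and 37 in Yl_5_3. The high sample was Yl_5_2 replicate 1, and the log2 difference of 0.40 (interval from -0.04 to 0.84) passed the threshold without Yl_5_2 replicate 3 (0.56) and with total counts (0.52) or limma on log2(FPKM + 1) (0.39), and fell to 0.11 without Yl_5_2 replicate 1.

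The choice of 10 of the 30 genes rested on single samples, in that each was lost from the set when 1 of the 9 samples was left out. For XM_505199.1, XM_501092.1, XM_501917.1, XM_500077.1, XM_504145.1 and XM_002143006.1, described above, the ratio nearer to 0 lay between -0.66 and -0.60. The other 4 were, with XM_503685.1, the 5 genes of the 30 whose samples of a strain spread most. Of these, XM_501857.1 had raw counts of 0, 362 and 3 in Yl_5_1, 184, 2 and 0 in Yl_5_2, and 9, 12 and 0 in Yl_5_3. Nearly all of its control reads came from replicate 2, the strains overlapped completely, and the gene was no longer chosen without that sample or without Yl_5_2 replicate 2 or 3. XM_501401.1, a feature of 3903 bases with the lowest mean FPKM of the set, had raw counts of 47, 29 and 45, then 40, 10 and 1, then 25, 25 and 18, and was no longer chosen without Yl_5_1 replicate 3. Replicate 1 of Yl_5_2 lay within the control range, and the difference between the mutants was -0.44 (adjusted p = 0.638, edgeR), -2.06 without that sample (adjusted p = 0.00294, edgeR), 0.11 without Yl_5_2 replicate 3 and between -0.51 and -0.16 without any single one of the other samples.

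XM_499898.1, with 7866 bases the longest of the 30 features, had 840.1, 844 and 829 normalised counts in Yl_5_1, 205, 334 and 235 in Yl_5_2, and 199, 823 and 547 in Yl_5_3. The control samples agreed closely and the samples of Yl_5_3 spread from the level of Yl_5_2 to that of the control. Without Yl_5_3 replicate 1 the gene was not chosen, and the difference between the mutants went from -1.01 (adjusted p = 0.118, edgeR) to -1.39 (adjusted p = 0.00256, edgeR), while without Yl_5_3 replicate 2 it went to -0.49 (adjusted p = 0.396, edgeR). XM_505821.1 (YALI1_F31672g) had 1359.9, 1217 and 1218, then 989.5, 888 and 453, then 498, 562 and 471. Replicate 3 of Yl_5_2 lay at the level of Yl_5_3, and without it the gene was not chosen and the mutants differed by 0.90 (adjusted p = 7.55e-08, edgeR) in place of 0.62 (adjusted p = 0.0991, edgeR). Without Yl_5_2 replicate 1 the difference was 0.41 (adjusted p = 0.25, edgeR), and limma on log2(FPKM + 1) called it at 0.66 (adjusted p = 0.0305). Whether reads of similar sequences elsewhere in the genome were counted on these features was not tested.

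In level the 30 genes reached from rare to abundant transcripts. Their mean FPKM in Yl_5_1 ran from 0.520 to 499 with a median of 25.3. The median was 48.3 over the features that could be chosen and 25.8 over the 77 features with both ratios at least 0.6. Above 100 FPKM were 8 of the 30 genes (26.7%), against 29.7% of the features that could be chosen. The highest were XM_505295.1 at 499 ± 9.50 FPKM (SD, n = 3), XM_503042.1 at 453 ± 52.9, XM_505199.1 at 352 ± 12.6, XM_504657.1 at 308 ± 35.5, XM_501917.1 at 245 ± 16.7 and XM_504340.1 at 187 ± 53.1. By FPKM, a level per length that can be ranked between genes, these 6 genes were among the 1000 most abundant of the 6145 features in Yl_5_1, while 3 of the 30 genes were in Yl_5_2 and 1 in Yl_5_3. XM_504340.1 moved furthest among them, from rank 966 in Yl_5_1 to rank 4097 at 25.4 ± 2.33 FPKM in Yl_5_2 and rank 3283 at 35.9 ± 0.674 FPKM in Yl_5_3. XM_505295.1 moved from rank 334 to 948 and 766, and XM_503042.1 from rank 364 to 950 and 1257. Lower levels in the mutants follow from the rule, so these moves in rank only describe the chosen genes. At the other end, XM_501401.1 was at rank 6006 in Yl_5_1 already.

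The lengths of the 30 features lay between 162 and 7866 bases with a median of 1239, close to the median of 1263 over the features that could be chosen. Under 300 bases were 2 of them (6.67%, against 2.07%) and over 3000 bases were 3 of the 30, against 7.47%. A W29 locus tag was found for 23 of the 30, or 76.7%, against 92.9% of the features that could be chosen, 92.2% of the 77 features with both ratios at least 0.6 and 93.4% of the 304 lowered in Yl_5_3 only (log2 ratio at most -0.6 in Yl_5_3 and above -0.2 in Yl_5_2). The 7 genes without a tag were XM_501857.1, XM_505295.1, XM_499898.1, XM_501401.1, XM_002143006.1, XM_500077.1 and XM_502432.1, and 5 of the 10 genes whose choice rested on a single sample are among them. The spread between samples of a strain was taken as the pooled standard deviation of log2(normalised count + 0.5). Its median was 0.16 over the 30 genes and 0.07 over the features that could be chosen. Over the 77 features with both ratios at least 0.6 the median was 0.12, and over the 304 lowered in Yl_5_3 only it was 0.09. The spread was 0.3 or less for 25 of the 30 genes. These shares and medians describe a set chosen by its values and carry no test.

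Whether genes beside the 30 were low as well was examined for those with a position. In the gene order of assembly ASM176148v1 of strain W29, counting the protein-coding genes that match a feature, none of the 23 placed genes stood next to another. The closest were XM_504335.1 and XM_504340.1, with 4 genes between them, none of which was at or below -0.6 in either mutant, and XM_500273.1 and XM_500282.1, with 5 genes between them, none of which was at or below -0.6 in Yl_5_2 and 1 of which was in Yl_5_3. The 43 genes directly beside the 23 and at or above the control minimum had median log2 ratios of -0.02 in Yl_5_2 and -0.04 in Yl_5_3. At or below -0.6 were 1 of them in Yl_5_2 (2.33%, against 1.85% of the features that could be chosen) and 7 in Yl_5_3 (16.3%, against 7.54%). The genome build behind the deposited counts is not given in the sources used here, and strains can differ in gene order. The 7 genes without a tag have no position here, among them XM_500077.1, whose accession number is next to that of XM_500076.1.

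**Figure D4:**
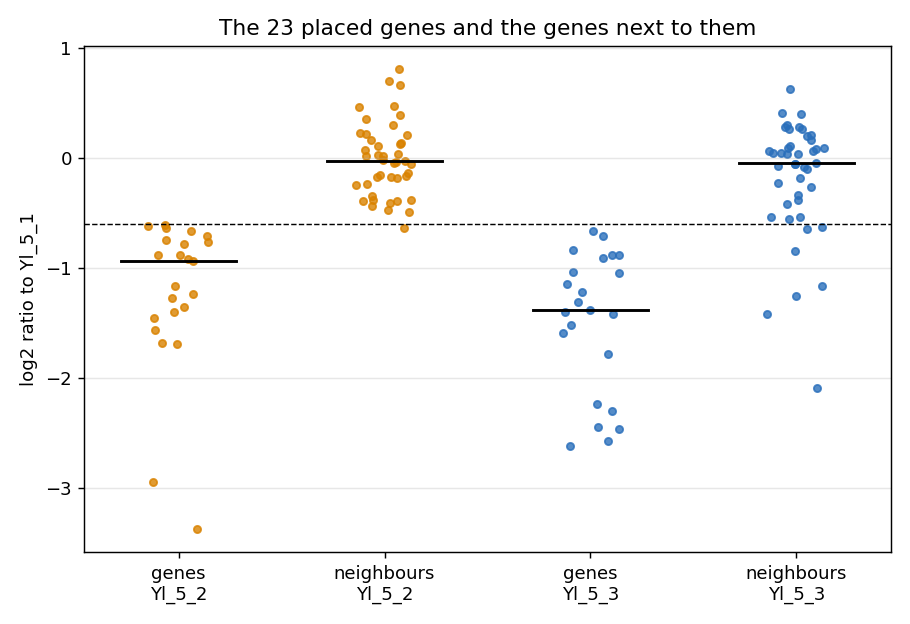
Log2 ratio to Yl_5_1 of the 23 genes placed in the W29 gene order and of the 43 genes directly beside them that reached the control minimum, in Yl_5_2 (orange) and Yl_5_3 (blue), with medians as black lines and the limit of -0.6 dashed. The neighbours centre near 0 in both mutants (medians -0.02 and -0.04), with 7 of 43 at or below the limit in Yl_5_3.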

How the data were processed

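Total RNA of 9 samples was made into NEBNext Ultra libraries and read from both ends on an Illumina HiSeq. The authors deposited whole-number read counts of 6145 features without normalization, and FPKM values of the same features, which equal the deposited counts divided by feature length and by the total count. HTSeq 0.6.1 and DESeq 1.18.0 are named in the submitters' processing notes, and the aligner, build and annotation are not given in the sources used here. Columns of sample values not used numbered 0.

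The strains were compared by edgeR 4.0.16 (R 4.3.3), using TMM factors (from 0.952 to 1.05), a term per strain over all 9 samples and robust quasi-likelihood fits. Features entered when 3 or more samples had 10 or more counts, and p-values were adjusted by Benjamini-Hochberg over these 6037 features. Standard errors and 95% intervals were taken from the F statistic. The precision rests on 17771507 to 23288547 counts per sample. Samples of a strain differed by more than sampling noise (chi-square of counts per degree of freedom of at least 3.39). Counts for Yl_5_2 against Yl_5_3 were simulated with 200 of 6029 genes changed. On the log2 scale edgeR found 97 of 100 changes of 1.5 and 99 of 100 of 0.75, with 10 false calls. In the data 67.4% of features were called between these strains. The median spread was 0.16 over the 30 genes and 0.07 over the features that could be chosen. The simulation did not copy these settings, so it does not give the share of differences found among the 30 genes.

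The 30 genes, the lists and the tests were chosen with earlier results of these data known. Genes were named by fixed ranks of ratio, level, difference between the mutants and nearness to the limit, and the remaining genes of the 30 so that each was accounted for. Planned groups by product name and sequence features were not used here, since the reference table (8689 genes of W29, matched by accession for 5430 of 5959 features) holds neither. Alternatives were other scalings, DESeq2 1.42.0, limma 3.58.1 on log2(FPKM + 1) and log2(FPKM + 0.1), other filters, the 6 samples compared, a replicate block and leaving out each sample.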

Additional observations from a re-analysis of the deposited data

How the results depend on the processing

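The calls among the 30 genes between the mutants kept to between 3 and 5 lower in Yl_5_2 and between 9 and 14 lower in Yl_5_3 under all alternatives, where the shares over all features ran from 19.6% to 34.1% and from 32.8% to 49.8%, and leaving out each sample gave from 4 to 5 and from 10 to 13. Calls against Yl_5_1 ranged from 20 to 28 in each mutant. The 20 came with at least 50 counts in every sample, where fewer of the genes were tested. Over all features the share called ran from 21.2% to 30.2% in Yl_5_2 and from 24.8% to 37% in Yl_5_3. The rule used these contrasts, so nothing is read from these calls. With a replicate block the counts were 4 and 11 between the mutants (30.7% and 36.2% of all features) and 28 and 27 against Yl_5_1 (29.7% and 29.2%). No pairing of the samples by replicate number was seen, which does not exclude one. Deviations of same-numbered samples correlated between -0.13 and 0.16, and 1 of 9 samples was closest to its own number in both other strains. The number of genes chosen was 50 at a limit of -0.5, 17 at -0.8 and 10 at -1, and from 28 to 32 with a sample left out, which lost from 0 to 4 of the 30 at a time and 10 different genes in all. With total counts 27 genes were chosen, of which 25 were among the 30, and the median log2 difference of Yl_5_2 minus Yl_5_3 over all features tested moved from 0.03 to 0.16. Signs turned only for genes without a call: XM_500273.1 went from -0.02 to 0.11 with total counts, to 0.094 and 0.11 with limma on log2(FPKM + 1) and log2(FPKM + 0.1), and between -0.10 and 0.045 with a sample left out. XM_504198.1 went from -0.08 to 0.048 with total counts and to 0.047 and 0.048 with limma at these pseudocounts, and XM_501401.1 lay between -2.06 and 0.11 with a sample left out. The cause of these turns was not tested. Of the other single-gene values under an alternative, 20 gained a call, 7 lost it and 521 kept their direction and side of the threshold.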
